A study of Drosophila melanogaster with 36 samples.

Results

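The aminoacyl-tRNA synthetase genes of Drosophila melanogaster were followed in whole embryos of 9 isogenic lines at 8 h and at 5 h. Members were all genes whose platform symbol is an amino acid code followed by RS, or begins with the older prefix Aats-, and 30 of 11982 genes with 1 symbol met this rule. The suffix -m put 14 of them in the mitochondrial class, and the other 16 are called cytoplasmic here. Where a gene had several probe sets, the one of highest mean stands for it. AspRS, MetRS and AlaRS-m were not analysed here. alpha-PheRS and beta-PheRS, the subunits of the cytoplasmic phenylalanine enzyme, fall outside the rule because of their prefix.

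An isogenic line is a stock bred until its flies carry nearly the same genome, and the labels name no treatment, mutation or transgene for any of the embryos. The lines are named by the numbers in the array titles: Drosophila_17, Drosophila_23, Drosophila_58, Drosophila_75, Drosophila_83, Drosophila_89, Drosophila_128, Drosophila_134 and Drosophila_145. The data comprised 18 arrays at the age of 8 h and 18 at 5 h, 2 RNA samples to a line and time. For 1 of those at 5 h the title gives no line, so the comparisons used 35 arrays, and line Drosophila_17 was left with 1 at that age. Whether both RNA samples of a line stem from different collections of embryos is not stated, and the p-values among lines therefore reflect the spread of these samples alone, which may be technical. In RNA from whole embryos, fewer cells that express a gene and less RNA per cell cannot be told apart.

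Aminoacyl-tRNA synthetases attach each amino acid to its own tRNA and so supply the ribosome with charged tRNA. Most amino acids are served by a pair of nuclear genes, one for the cytoplasm and one for the mitochondrion, where a separate set of tRNAs is charged. Some enzymes depart from this scheme: GluProRS joins the glutamate and proline activities in a single protein, and GlyRS and LysRS serve both compartments from a single gene in animals. In mammals GluProRS, IleRS, LeuRS, GlnRS, LysRS and ArgRS are held with others in a multi-synthetase complex by the scaffold proteins AIMP1, AIMP2 and AIMP3. Embryos inherit much of their early translation machinery from the mother as RNA and protein.

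Values are intensities of 1-colour Affymetrix arrays, in arbitrary units, quantile normalised between arrays. Differences are on the log2(intensity + 16) scale, which understates the change of dim probe sets, and 26 of the 30 members had a mean intensity below the pseudocount of 16. A probe set is called measured where it lay above the 99th percentile of 49 negative-control probe sets on at least 18 of 36 arrays. This held for 16 of 16 cytoplasmic members and 8 of 14 mitochondrial members, and the median over the members of each class was an intensity of 9.07 for all 16 and 2.63 for all 14. GluRS-m, ValRS-m, AsnRS-m, ArgRS-m, TrpRS-m and IleRS-m were not measured in this sense. Arrays differed in brightness, with summed intensities of 46261 to 266525 at 8 h and 68984 to 309710 at 5 h. Most stage markers differed between the ages, 8 being lower and 4 higher at 8 h by the limma test described below. The maternal gene bcd averaged 35.7 at 8 h and 36.4 at 5 h (limma adjusted p = 0.84). The mesoderm gene twi was not called either (0.052). The genes slam, of cellularisation, and halo, of lipid droplet transport, averaged 17.2 and 6.69 at 8 h, against 177 and 92.6 at 5 h, and the segment polarity gene en averaged 21.1 at 8 h and 4.66 at 5 h. The yolk protein genes Yp1, Yp2 and Yp3, which adult females express, exceeded that limit on at most 2 of 18 arrays of either age, as did the chorion gene Cp36. Cp15, another chorion gene of the ovary, exceeded it on 8 of 18 arrays at 8 h and 10 of 18 at 5 h, averaging 1.82 at 8 h and 2.61 at 5 h, and its part in the results was not tested. The 14 measured stage markers also differed among lines, 14 of 14 by the F test.

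The first comparison asked how these transcripts changed as the embryos aged. Transcripts of 4 cytoplasmic members fell, GlnRS, HisRS, IleRS and LeuRS, as did that of 1 mitochondrial member, ProRS-m, and 0 of 30 rose, by limma on 18 means of line and time with the line as a block (p-values adjusted by Benjamini-Hochberg across all 18769 probe sets). At an unadjusted p under 0.05 there were 11 members, 10 lower at 8 h and PheRS-m higher, which is 36.7% of the members, against 41.3% of measured and 19.6% of all probe sets. Of all probe sets 3.67% fell and 3.85% rose, and of measured probe sets 10.6% fell and 9.69% rose. Of probe sets within the range of mean intensity of the cytoplasmic members, 11.6% fell. The 4 fallers were 25% of the cytoplasmic members and the 1 faller was 7.14% of the mitochondrial ones. No test of the classes was made, since the members were chosen with results of these data known.

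GlnRS, which charges tRNA with glutamine, had line means of 3.89 to 11.8 at 8 h (median 7.06), against 11.6 to 15.3 at 5 h (median 13.4). The ranges met only at their edge, and 9 of 9 lines were lower at 8 h, counted on the log2 scale here and for the other members. The change was -0.31 ± 0.061 (SE, n = 9 lines, limma adjusted p = 0.0022), and the mean intensity at 8 h was 0.583 of that at 5 h. HisRS, the histidine enzyme, had line means of 3.47 to 12.6 at 8 h (median 6.46), against 8.00 to 14.5 at 5 h (median 11.6). It was also lower at 8 h in 9 of 9 lines, with a change of -0.29 ± 0.059 (SE, n = 9, limma adjusted p = 0.0038). These 2 falls kept their call in every alternative setting run and with each line left out.

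IleRS, the isoleucine enzyme, averaged 22.2 ± 7.92 at 8 h and 30.8 ± 4.30 at 5 h (SD, n = 9). Its line means overlapped between the times, running from 10.8 in line Drosophila_134 to 35.9 in line Drosophila_145 at 8 h, against 21.6 to 35.8 at 5 h. It was lower at 8 h in 8 of 9 lines, by only 0.01 in line Drosophila_145, and the change of -0.33 ± 0.10 had limma adjusted p = 0.046. LeuRS, which in mammals also acts as a leucine sensor upstream of mTORC1, averaged 5.84 ± 3.28 at 8 h and 9.38 ± 3.67 at 5 h (SD, n = 9). It was lower in 8 of 9 lines, at -0.22 ± 0.059 (SE; limma adjusted p = 0.025), with line Drosophila_134 the exception. ProRS-m, the mitochondrial proline enzyme, had line means of 0.397 to 3.04 at 8 h, against 1.45 to 5.69 at 5 h, a change of -0.14 ± 0.039 (SE, n = 9, limma adjusted p = 0.027). Only 6 of 18 arrays at 8 h exceeded the negative-control limit, against 16 of 18 at 5 h, so most of its arrays at 8 h were not above it. These 3 calls were less steady: with 9 lines left out in turn, IleRS and LeuRS each kept the call 3 times and ProRS-m 4 times. With arrays as the unit and array brightness as a covariate, the change of IleRS was -0.13 ± 0.10 (adjusted p = 0.65), that of LeuRS -0.07 ± 0.076 (0.75) and that of ProRS-m -0.13 ± 0.046 (0.12). With arrays as the unit and no covariate these changes were -0.33, -0.21 and -0.14, each called.

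**Figure D1:**
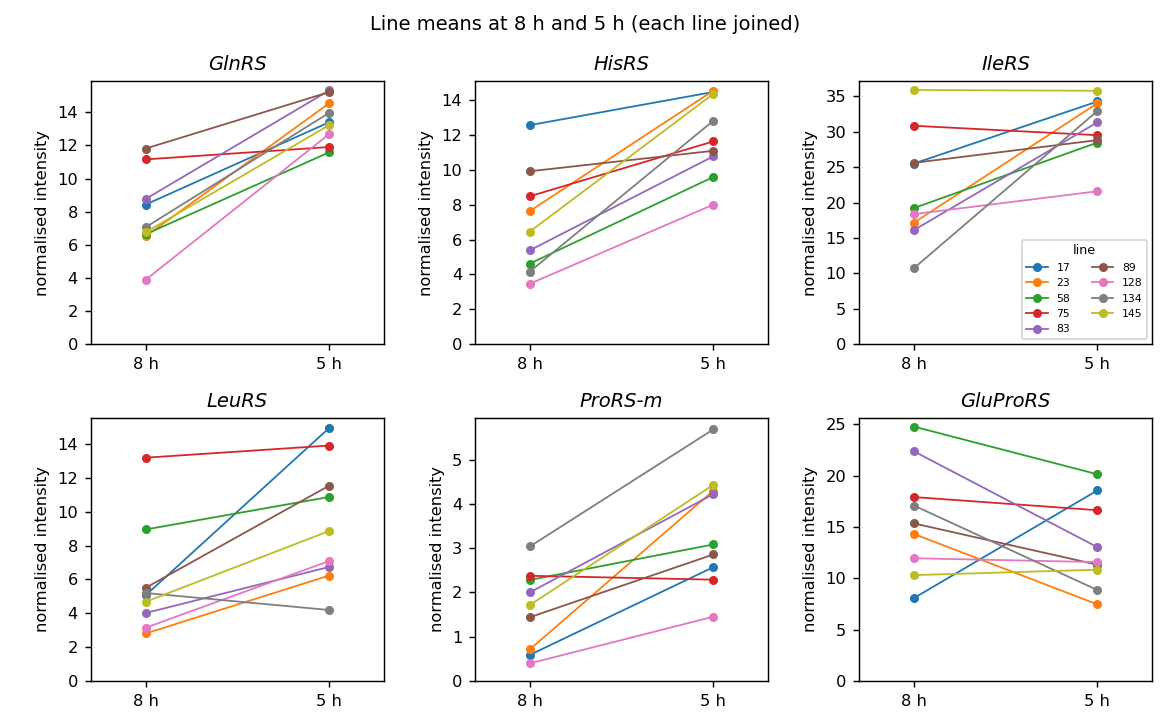
Normalised intensity (linear, arbitrary units) of the 5 members that fell and of GluProRS, with 1 line per isogenic line joining its mean at 8 h (left) to its mean at 5 h (right). GlnRS and HisRS were lower at 8 h in 9 of 9 lines, whereas GluProRS averaged 15.8 at 8 h and 13.2 at 5 h without being called.

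The cytoplasmic members did not move alike. Of the 6 that belong to the mammalian complex, 3 fell (IleRS, GlnRS and LeuRS), and changes of the 6 ran from -0.33 to 0.12 with a median of -0.22. Among all probe sets 3.67% fell, and 11.6% of those in the intensity range of the cytoplasmic members. The calls of IleRS and LeuRS were among the less steady ones described above. The remaining 3 of the 6 did not pass the test. LysRS stood at -0.23 ± 0.10 (adjusted p = 0.18) and was lower at 8 h in 9 of 9 lines. ArgRS stood at 0.06 ± 0.069. GluProRS stood at 0.12 ± 0.084 (adjusted p = 0.47), averaging 15.8 ± 5.44 at 8 h and 13.2 ± 4.36 at 5 h (SD, n = 9), and was higher at 8 h in 8 of 9 lines, all but line Drosophila_17. Of the other 10 cytoplasmic members 1, HisRS, fell, and the median change was -0.01. AsnRS stood at -0.19, ThrRS at -0.16 and CysRS at -0.10, with adjusted p from 0.13 to 0.41. AlaRS, ValRS, SerRS, TrpRS, TyrRS and GlyRS lay between -0.01 and 0.03. This grouping by complex membership was made with the values known, and no test was run on it. The median over all probe sets was 0.00 and over measured probe sets -0.03.

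TrpRS was the member with more than 1 probe set. Its 3 probe sets changed by 0.05, 0.02 and 0.02, none called, and the dimmest exceeded the limit on 1 array of 8 h and 2 of 5 h. The probe sets of IleRS, ThrRS and ValRS carry the suffix that Affymetrix gives to sets matching several transcripts, so signal from related transcripts may add to theirs.

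Among mitochondrial members 11 of 14 had a negative difference, and their changes ran from -0.14 to 0.10 with a median of -0.05. Beside ProRS-m, LeuRS-m came nearest to a call, with -0.14 ± 0.043 (limma adjusted p = 0.052) and lower values at 8 h in 9 of 9 lines. It averaged 2.90 ± 1.69 at 8 h and 4.72 ± 1.5 at 5 h (SD, n = 9). CysRS-m stood at -0.11 ± 0.044, averaging 2.46 at 8 h and 3.95 at 5 h. PheRS-m was the highest of the class, at 0.10 ± 0.046 (adjusted p = 0.21), averaging 5.15 ± 2.05 at 8 h and 3.62 ± 1.17 at 5 h (SD, n = 9). AspRS-m, the 1 mitochondrial member above the limit on all 36 arrays, averaged 15.1 ± 4.42 at 8 h and 16.9 ± 2.30 at 5 h (SD, n = 9), at -0.10 ± 0.072. The other members of the class were dim at both times, with means of 0.881 to 2.95 at 8 h and 0.848 to 3.69 at 5 h. A difference of the same proportion is smaller on this scale for such probe sets than for the brighter cytoplasmic ones.

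**Figure D2:**
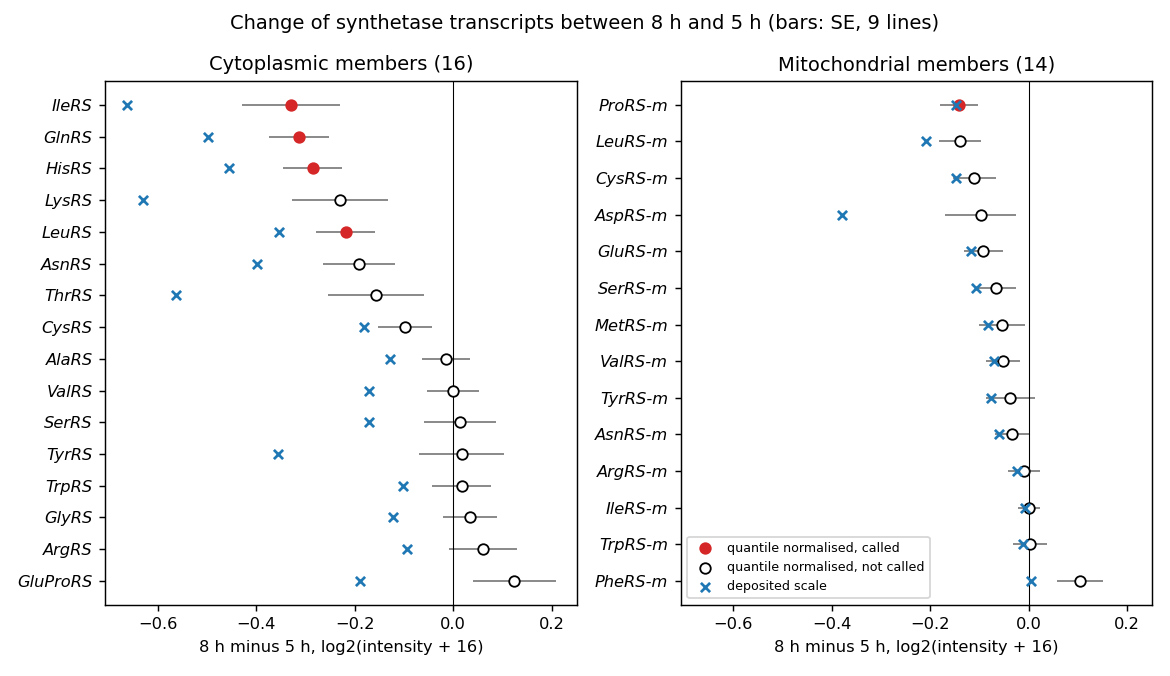
Difference between 8 h and 5 h on the log2(intensity + 16) scale for the 16 cytoplasmic and 14 mitochondrial members (circles with SE over 9 lines, filled where called at an adjusted p of 0.05), with the same difference on the deposited scale as crosses. The crosses lie to the left of the circles for 30 of 30 members.

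The size of the falls, and how many members took part, depended on the scaling between arrays. On the deposited scale 14 members fell, 9 cytoplasmic and 5 mitochondrial, and 0 rose, where 15.7% of all probe sets fell. There the median change of the cytoplasmic members was -0.27, against -0.06 after quantile normalisation. Of all called probe sets 10% rose on the deposited scale, 13% with centred medians, 71.5% when every array was set to the same 90th percentile and 51.2% after quantile normalisation. With the common 90th percentile GlnRS, HisRS and IleRS fell and the rest were not called, where 2.87% of all probe sets fell. Averaged over the class, with each member centred on its own mean, cytoplasmic members were lower at 8 h in 8 of 9 lines, by 0.05 to 0.23, and higher by 0.04 in line Drosophila_75. Mitochondrial members were likewise lower at 8 h in 8 of 9 lines, with changes of -0.09 to -0.03, and stood at 0.01 in line Drosophila_75. In line Drosophila_75, arrays at 8 h had totals of 266525 and 212329, against 217807 and 257381 at 5 h. In line Drosophila_17, with the largest class difference, totals were 142942 and 96594 at 8 h, against 178651 at 5 h. In line Drosophila_145 the totals were 134588 and 77286 at 8 h, against 112408 and 68984 at 5 h, and the cytoplasmic class mean was lower there by 0.11. The part of brightness in these differences was tested only through the covariate given above.

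Other genes that serve tRNA charging were taken from lists chosen with earlier results of these data known. Of 3 scaffold genes of the complex AIMP2 fell, averaging 15.4 ± 3.64 at 8 h and 24.4 ± 3.89 at 5 h (SD, n = 9), a change of -0.37 ± 0.086 with limma adjusted p = 0.0094. AIMP1 stood at 0.06 and AIMP3 at -0.05. Of 5 genes listed as amidotransferase subunits and other tRNA-related enzymes, 4 were matched to a probe set with 1 symbol (GatA, GatB, Slimp and Dtd). Among these 1, GatA, fell by 0.24 (limma adjusted p = 0.0073). GatA is a subunit of the amidotransferase that converts glutamate to glutamine on the tRNA, and it averaged 2.74 ± 1.87 at 8 h and 6.06 ± 1.54 at 5 h (SD, n = 9). It exceeded the negative-control limit on only 8 of 18 arrays at 8 h, against 18 of 18 at 5 h. Slimp, a relative of the seryl enzymes found in insect mitochondria, stood at -0.06 and was not measured. The subunit genes alpha-PheRS and beta-PheRS stood at -0.03 and 0.01, and neither was called for time or for lines.

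Of 7 elongation factor genes listed 5 were matched to a probe set with 1 symbol. Among these 5 genes 2 fell and 0 rose. These were eEF1delta, an exchange factor subunit for the factor that brings charged tRNA to the ribosome, at -0.61 ± 0.14 (adjusted p = 0.0079), and its mitochondrial counterpart in role mEFTs, at -0.19 ± 0.044 (adjusted p = 0.0075), each lower at 8 h in 9 of 9 lines. The size of the eEF1delta change differed among lines (limma F test adjusted p = 0.0055). Of 5 genes listed for the amino acid starvation response 3 were matched, and 1 of these rose. This was crc, the fly ATF4 gene, which encodes a transcription factor made when charged tRNA runs short, and it averaged 58 ± 14.1 at 8 h and 35 ± 13.4 at 5 h (SD, n = 9; 0.56 ± 0.10, limma adjusted p = 0.0015). The kinase gene Gcn2, which senses uncharged tRNA, stood at -0.09 and was not called. Of 13 amino acid synthesis genes 3 fell and 0 rose. Got1, the cytosolic aspartate aminotransferase gene, changed by -0.49 ± 0.088 (adjusted p = 0.0011). AsnS, asparagine synthetase, changed by -0.29 ± 0.064 (adjusted p = 0.0068), and P5cr, of proline synthesis and not measured, by -0.14 ± 0.041 (adjusted p = 0.04). Of 11 tRNA processing and modification genes 9 were matched, and of 7 amino acid transporter genes 6. In these lists 0 were called for time by limma (1 and 2 at an unadjusted p under 0.05), with median changes of -0.03 and -0.02. That threshold was met by 1 of 3 scaffold genes and 2 of 4 in the amidotransferase list. In the elongation factor, starvation response and synthesis lists it was met by 2 of 5, 1 of 3 and 7 of 13. It was met by 41.3% of measured and 19.6% of all probe sets. By adjusted p 10.6% of measured and 3.67% of all probe sets fell, and 9.69% and 3.85% rose.

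The second comparison asked which members differed among the 9 lines. Over both times 9 of 16 cytoplasmic members differed among lines by limma's moderated F test, and 0 of 14 mitochondrial members did (4 of the 14, or 28.6%, at an unadjusted p under 0.05, against 28.2% of all and 66.3% of measured probe sets). The 9 were SerRS, ValRS, AlaRS, AsnRS, LysRS, LeuRS, GlyRS, GluProRS and HisRS. Of all probe sets 19.5% were called, and of measured probe sets 51.4%. Of probe sets in the intensity range of the cytoplasmic members 57.1% were called, so the cytoplasmic share of 56.2% is near the background. In the range of the 8 measured mitochondrial members 46.1% were called, but those members lay toward the low end of it, with a median intensity of 3.26 against 5.97. Line means spanned a median of 0.49 for cytoplasmic members and 0.21 for mitochondrial ones, against 0.13 over all and 0.41 over measured probe sets. Between the RNA samples of a line at a given time, the median SD was 0.164 for cytoplasmic and 0.088 for mitochondrial members, and the median SD of the 9 line means was 0.155 and 0.071. The former is a spread of single arrays and the latter one of averages over arrays and both times. The sizes of these SDs are therefore not directly comparable.

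At 8 h alone 10 members differed among lines, 9 of them cytoplasmic, where 18.4% of all and 44.2% of measured probe sets were called. At 5 h alone 1 did, SerRS, where 7.45% of all and 21.1% of measured probe sets were called. SerRS was thus called at each time. LeuRS, GlyRS and HisRS, called over both times, were called at neither time alone. Their F tests had adjusted p of 0.12, 0.096 and 0.053 at 8 h, and 0.28, 0.25 and 0.69 at 5 h. For the change between the times, 0 members differed among lines by limma, where 1.37% of all probe sets were called. At an unadjusted p under 0.05 there were 3 of 30, against 12% of all and 26.5% of measured probe sets. ArgRS came nearest, with adjusted p = 0.077. Its change was 0.67 in line Drosophila_134, 0.33 in line Drosophila_23 and between -0.15 and 0.00 in the other 7 lines. In line Drosophila_134 both arrays at 5 h lay below the negative-control limit for ArgRS. Its deposited intensities there were 0.153 and 1.76, against limits of 2.11 and 2.5.

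SerRS, the cytoplasmic serine enzyme, had the widest span of all members, 0.66. At 5 h the arrays of line Drosophila_89 read 18.4 and 25.5, above every other array at that time, the next being 12.7 in line Drosophila_75. At 8 h the same line read 6.85 and 10.96, within the range of the other lines. Line Drosophila_134 read 5.94 and 0.49 at 8 h, and 6.06 and 1.51 at 5 h. Over both times SerRS was higher in line Drosophila_89 than in the other 8 lines by 0.38 ± 0.097 (adjusted p = 0.021) and differed by -0.37 ± 0.097 in line Drosophila_134 (adjusted p = 0.0157). The F test over lines had adjusted p = 0.0014.

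ValRS, the cytoplasmic valine enzyme, read 13.2 and 13.1 at 8 h and 10.4 and 12.7 at 5 h in line Drosophila_83. Line Drosophila_58 had the lowest mean, with 2.90 and 5.39 at 8 h and 4.24 and 4.92 at 5 h, and the lowest single array was 1 of line Drosophila_145 at 5 h, at 1.96. Line Drosophila_83 exceeded the other 8 lines by 0.34 ± 0.069 (adjusted p = 0.00804), and the F test had adjusted p = 0.0019. GlyRS was likewise highest in line Drosophila_83, at 14.4 and 11.01 at 8 h and 11.3 and 7.69 at 5 h, by 0.32 ± 0.080 (adjusted p = 0.0497). Variants of the human orthologue of GlyRS cause Charcot-Marie-Tooth neuropathy.

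AlaRS, the cytoplasmic alanine enzyme, read 8.68 and 9.27 at 8 h and 7.73 and 9.99 at 5 h in line Drosophila_58. In line Drosophila_145 it read 3.88 and 0.21 at 8 h, and 3.26 and 1.83 at 5 h. Line Drosophila_58 exceeded the other lines by 0.28 ± 0.064 (adjusted p = 0.00338), and line Drosophila_145 differed by -0.23 ± 0.064 (adjusted p = 0.0448). GluProRS was highest in line Drosophila_58 too, with line means of 24.8 at 8 h and 20.1 at 5 h, by 0.40 ± 0.10 (adjusted p = 0.00976). AsnRS, the asparagine enzyme, had its lowest mean intensities over both times in line Drosophila_23 (6.73) and line Drosophila_17 (8.34). Its highest was in line Drosophila_89 (16.3), and the F test had adjusted p = 0.0076. No single line was called for it against the others, and line Drosophila_23 came nearest at adjusted p = 0.0591.

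LysRS and LeuRS were highest in line Drosophila_75. Stage markers stood apart in that line too: of the 14 measured, the maternal genes bcd, osk and gnu were highest there, and 7 were lowest there (halo, ftz, en, elav, pros, SoxN and twi). Their part in the differences of this line was not tested. LysRS read 39.9 and 41.7 at 8 h and 38.0 and 45.2 at 5 h there, against 22.7 and 10.5 at 8 h and 36.2 and 32.9 at 5 h in line Drosophila_23, the lowest line. Line Drosophila_75 exceeded the other 8 lines by 0.33 ± 0.096 for LysRS (adjusted p = 0.0222) and by 0.38 ± 0.095 for LeuRS (adjusted p = 0.00642). TyrRS went the other way, with line means of 17.9 at 8 h and 12.0 at 5 h in line Drosophila_75, a difference of -0.40 ± 0.10 (adjusted p = 0.0104). HisRS was highest in line Drosophila_17 and lowest in line Drosophila_128, with a span of 0.47 and an F test adjusted p = 0.049. It kept this call in 7 of 34 fits with a single array left out. The call of GlyRS was lost without replicate 1 of line Drosophila_83 at either time, that of LeuRS without replicate 2 of line Drosophila_75 at either time, and that of GluProRS without any of 4 arrays, 3 of line Drosophila_58 and 1 of line Drosophila_83.

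**Figure D3:**
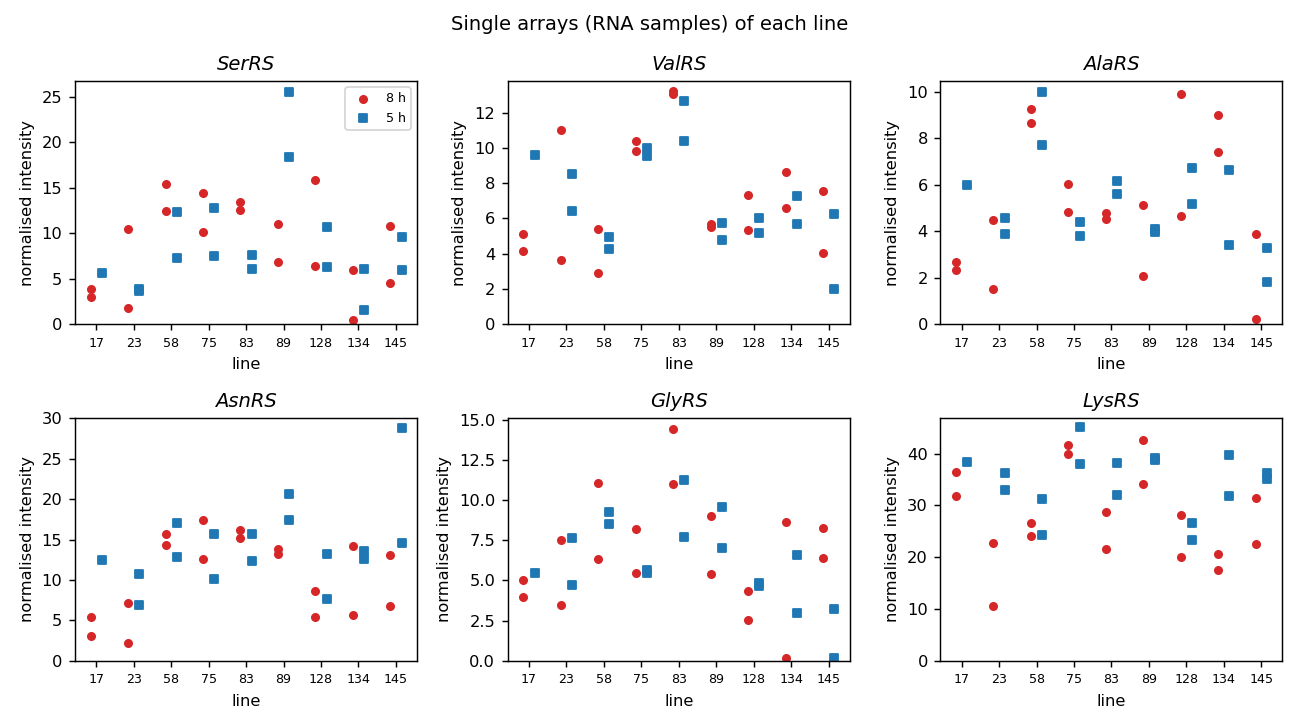
Normalised intensity (linear, arbitrary units) of single arrays for 6 cytoplasmic members by line, with circles at 8 h left of squares at 5 h. SerRS stands out in line Drosophila_89 at 5 h, ValRS and GlyRS in line Drosophila_83, and AlaRS in line Drosophila_58, while arrays of lines Drosophila_134 and Drosophila_145 reach the lowest values of SerRS, GlyRS and AlaRS.

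In each line against the other 8, counted over all 30 members, line Drosophila_58 had 4 higher (AlaRS, ArgRS, GluProRS and PheRS-m) and line Drosophila_75 had 3 higher (LeuRS, LysRS and ValRS-m) and 1 lower (TyrRS). Line Drosophila_83 had 2 higher (GlyRS and ValRS), line Drosophila_89 had 1 higher and line Drosophila_134 had 1 lower (both SerRS), and line Drosophila_145 had 1 lower (AlaRS). Lines Drosophila_17, Drosophila_23 and Drosophila_128 had 0. ArgRS, PheRS-m, TyrRS and ValRS-m are named here after their values were seen, and their F tests over lines were not called. Of all probe sets 8.19% were called for line Drosophila_58, 8.62% for line Drosophila_75, 0.794% for line Drosophila_83, 3.2% for line Drosophila_89, 6.71% for line Drosophila_134, 2.67% for line Drosophila_145, 0.938% for line Drosophila_17, 1.1% for line Drosophila_23 and 2.58% for line Drosophila_128. Line Drosophila_75 and line Drosophila_89 at 5 h had bright arrays, with totals of 212329 to 266525 and of 261232 and 309710, and line Drosophila_134 had dim ones, at 46261 to 110030. Of the 14 stage markers, line Drosophila_58 was highest for 1 and lowest for 3, line Drosophila_89 lowest for 2, line Drosophila_134 highest for 3 and lowest for 2, and line Drosophila_145 highest for 3, whereas line Drosophila_83 was at neither end for any of the 14. With array brightness as a covariate SerRS, ValRS, AlaRS, AsnRS and GlyRS were still called among lines, and GluProRS, HisRS, LeuRS and LysRS were not, with adjusted p of 0.16, 0.073, 0.47 and 0.11.

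No mitochondrial member passed the F test over both times. AspRS-m had the widest span of its class, 0.43. Its mean intensity over both times was highest in line Drosophila_17 (21.4) and lowest in line Drosophila_58 (11.8). Its F test over both times had adjusted p = 0.073, and AspRS-m was called at 8 h alone (adjusted p = 0.031). PheRS-m was highest in line Drosophila_58, with line means of 9.31 at 8 h and 5.89 at 5 h, by 0.24 ± 0.059 against the other 8 (adjusted p = 0.00588), while its F test had adjusted p = 0.051. The other 12 had spans of 0.10 to 0.34.

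**Figure D4:**
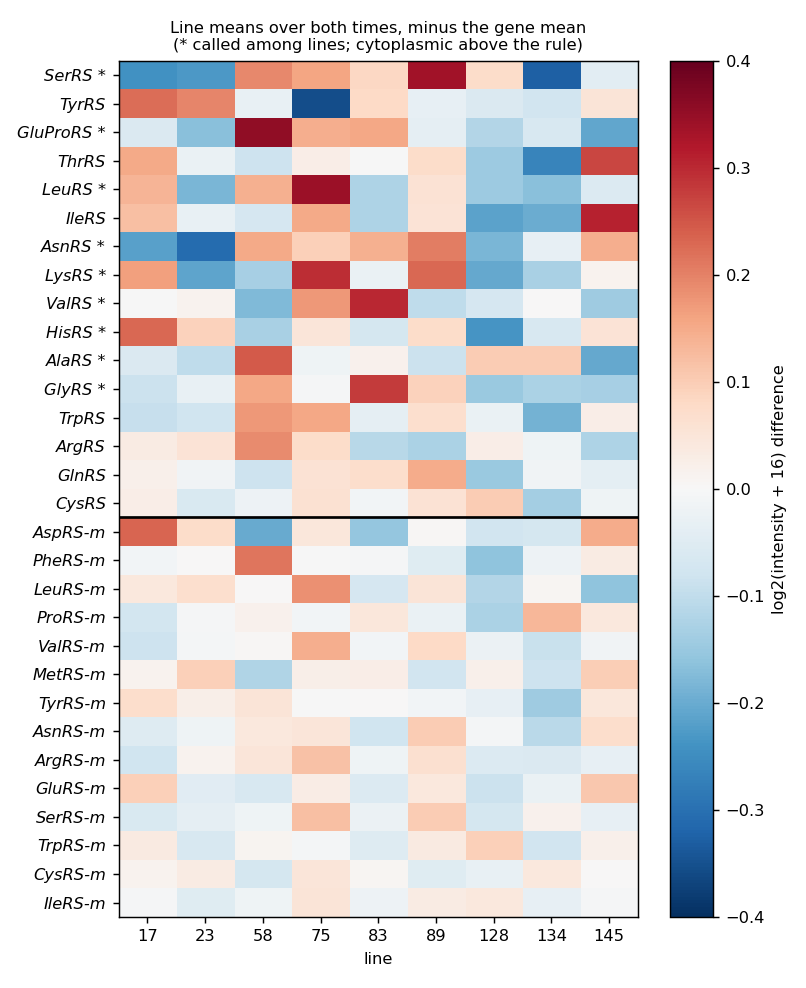
Mean of each member in each line over both times, minus its mean over the 9 lines, on the log2(intensity + 16) scale (red above, blue below), with members sorted by span within the cytoplasmic (top) and mitochondrial (bottom) class and asterisks on those called among lines. The 9 asterisks are all on cytoplasmic members, and the lines that are high differ from member to member.

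Among the related lists, differences between lines were called for 7 of 10 measured amino acid synthesis genes, 4 of 5 transporter genes, 3 of 4 elongation factor genes, 2 of 3 starvation response genes and 1 of 7 tRNA processing genes, against the 51.4% of measured probe sets given above. The widest spans were those of Cbs, cystathionine beta-synthase, at 1.45 (limma F test adjusted p = 4.2e-11), of the mitochondrial aminotransferase gene Got2 at 1.37 (5.6e-06), of Got1 at 1.07 (2.9e-07) and of crc at 1.04 (1.1e-05). Got1 and Got2 were highest in line Drosophila_75, and Cbs was highest in line Drosophila_83 and lowest in line Drosophila_58. The others called were Gs1, AsnS, Shmt, Gdh, slif, mnd, JhI-21, gb, eEF1gamma, eEF1delta, mEFTu1, Gcn2 and Nsun2, with spans of 0.36 to 0.91 and adjusted p from 7.7e-05 for slif to 0.042 for mEFTu1. In the scaffold and amidotransferase lists GatB came nearest to a call among lines, at adjusted p = 0.077.

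The cytoplasmic members did not share a single order of lines. Over the 120 pairs of cytoplasmic members the Pearson correlation of the 9 line means had a median of 0.16, with 24 pairs above 0.5 and 5 below -0.5. IleRS and ThrRS were the most alike, at 0.91, both highest in line Drosophila_145, and SerRS and TrpRS came next at 0.83. AlaRS ran against ThrRS at -0.76 and against IleRS at -0.72. These values are descriptions over 9 lines whose points share arrays and a normalisation. The 10 measured genes outside the family whose 18 means of line and time were most like the mean of the cytoplasmic members, out of 5184, were Cchl, Pgm1, galectin, CG7430, Fmr1, armi, CG1416, CG8206, CG17019 and Sply, with Pearson r of 0.84 to 0.89.

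TyrRS and GluRS-m are neighbouring genes in RefSeq's annotation of Release 6. TyrRS averaged 24.1 ± 4.68 at 8 h and 23.6 ± 5.76 at 5 h (SD, n = 9), at 0.02 ± 0.087, while GluRS-m, the mitochondrial glutamate enzyme, averaged 1.86 ± 1.15 at 8 h and 3.02 ± 1.06 at 5 h (SD, n = 9), at -0.09 ± 0.040. Neither was called for time or for lines.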

How the data were processed

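The values are intensities on a linear scale as deposited by the authors, 18952 probe sets on each of 36 arrays. Biotin-labelled cRNA made from total RNA was hybridised to 1-colour Affymetrix arrays, per the labels' protocols. The sources used here do not state which software or scaling made the intensities. The 183 control probe sets were left out. Because arrays differed in brightness, intensities were quantile normalised over 18769 probe sets and transformed as log2(intensity + 16). Tests were run in R 4.3.3 with limma 3.58.1 and a trended prior, among lines on 35 arrays (17 residual degrees of freedom), and for time on 18 means of line and time (8 residual degrees of freedom). Adjustment was Benjamini-Hochberg over all 18769 probe sets at 0.05. The functions were checked on simulated data with planted changes of 0.5 and line SDs of 0.5. Changes of the members were smaller, from -0.33 to 0.12, and the check does not say how often changes of that size are found. Negative controls were taken by their names, which no source used here states. Symbols come from the platform annotation, updated through the gene number to RefSeq (Release 6 plus ISO1 MT), with 13544 of 13647 probe sets with 1 symbol matched. Members called for time or for lines, and the member of widest span in each class, were named by rule. Members and lists were chosen with earlier results of these data known. Alternatives were other scalings, pseudocounts of 4 and 64, measured probe sets only, brightness as a covariate, arrays as the unit, the replicate block, an untrended prior, the mean of a gene's probe sets, and lines or arrays left out.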

Additional observations from a re-analysis of the deposited data

Results flagged for a closer look

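Among the 9 line means of each member at each time, 3 of 60 groups had a line standing apart from the nearest other by more than Dixon's limit for the share of the range. Chance flags about 1 in 20 such groups. SerRS at 5 h was highest in line Drosophila_89, with a gap of 0.574 of the range. IleRS at 5 h was lowest in line Drosophila_128, with a gap of 0.535, at a line mean of 21.6. ValRS-m at 8 h was highest in line Drosophila_75, with a gap of 0.599, at a line mean of 3.74, and lay above the negative-control limit on 3 of 18 arrays at that time.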

How the results depend on the processing

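GlnRS and HisRS fell in every setting run. The number of members that fell was 5 (4 cytoplasmic, 1 mitochondrial). It was 14 (9 and 5) on the deposited scale, and again 14 (9 and 5) there with a pseudocount of 4, which was chosen after seeing the data. Centring the medians gave 12 (8 and 4). It was 3 (3 and 0) at a common 90th percentile and 8 with arrays as the unit (3 mitochondrial). With arrays as the unit and brightness as a covariate together it was 2 (2 and 0), and 1 member rose, GlyRS. Of all probe sets 3.67% fell after quantile normalisation, 15.7% on the deposited scale, 16.4% there with a pseudocount of 4 and 13.4% after centring. The share was 2.87% at a common 90th percentile, 6.36% with arrays as the unit and 2.07% with brightness added. The mitochondrial count was 2 with a pseudocount of 4, with measured probe sets only, with an untrended prior and with the replicate block. TyrRS stood at 0.02 but was called downward on the deposited scale, at -0.35, and at -0.54 with a pseudocount of 4. With lines left out, also Drosophila_75 and Drosophila_89 together, which was added after seeing the data, 2 to 5 members fell (2 to 4 cytoplasmic, 0 to 1 mitochondrial) and 0 rose. IleRS lost its call without line Drosophila_17, Drosophila_23, Drosophila_58, Drosophila_83, Drosophila_128 or Drosophila_134, LeuRS without Drosophila_17, Drosophila_23, Drosophila_83, Drosophila_89, Drosophila_128 or Drosophila_145, and ProRS-m without Drosophila_17, Drosophila_23, Drosophila_83, Drosophila_134 or Drosophila_145. Members that differ among lines over both times numbered 9 (9 cytoplasmic, 0 mitochondrial). They numbered 24 (16 and 8) on the deposited scale and 22 (16 and 6) after centring the medians. With measured probe sets only they numbered 14 (2 mitochondrial), and with brightness as a covariate 5 (all cytoplasmic). Of all 18769 probe sets 3661 were called among lines after quantile normalisation, 6259 on the deposited scale, 4999 after centring and 2323 with brightness. With measured probe sets only 3745 of 6179 were called. The mitochondrial count was 1 at a common 90th percentile, 2 with a pseudocount of 64 and 3 with an untrended prior. With that prior LeuRS, GluProRS and HisRS lost the call, with F test adjusted p of 0.064, 0.077 and 0.053. HisRS also lost it at a common 90th percentile (0.086). At 8 h the count of 10 became 20 on the deposited scale and 4 with brightness. At 5 h the count of 1 became 19 on the deposited scale, 15 after centring, 2 with measured probe sets only and 0 with an untrended prior. For the change, 1 member was called in each of 3 settings (measured probe sets only, centred medians, deposited scale), against 0. With single arrays left out, 7 to 13 members differed over both times (6 to 11 cytoplasmic, 0 to 2 mitochondrial), 5 to 12 at 8 h, 0 to 2 at 5 h and 0 to 1 in their change. SerRS, ValRS, AlaRS, AsnRS and LysRS kept the call in 34 of 34 such fits, LeuRS and GlyRS in 32, GluProRS in 30 and HisRS in 7. The sample letters did not pair arrays across times: differences between samples correlated at -0.39 to 0.28 over 8 lines and above 0.1 in 3. With the replicate block 6 members fell and 11 differed among lines. The causes of these shifts were not tested.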

Other observations

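The array at 5 h whose title names no line had a total intensity of 104042. For 25 of the 30 members its intensity lay within the range of the 17 other arrays at 5 h. GlyRS, HisRS, ValRS and ProRS-m lay above that range, at 12.1, 18.3, 13.3 and 6.88, and TrpRS-m below it, at 0.066.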
